A study of Homo sapiens with 12 samples.

Results

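Small nucleolar RNA (snoRNA) host genes of the SNHG group were followed in the human embryonic kidney line HEK293 and in the extracellular vesicles (EVs) these cells released. The members were every gene with a symbol of SNHG and digits, together with GAS5, ZFAS1, EPB41L4A-AS1 and DANCR, which made 31 of the 57773 gene IDs in the table. A protein-coding gene model that GENCODE 29 also names SNHG28 had no symbol in the names used and was left out. GENCODE 29 annotates SNHG32 (there C6orf48) as protein-coding and the other 30 as noncoding. SNHG4 was not analysed here. All 4 groups carried the same plasmid set, 4EC1 (named after eGFP, EIF4E, YTHDF1, GBP1 and CD9), introduced with Lipofectamine for 48 h. Cells and EVs were each taken after normoxia and after hypoxia, which made 4 groups of 3 libraries. The protocol text, which is the same for every sample, names 24 h in a hypoxia chamber and 10% serum (FBS) in the medium. Untransfected cells were not analysed here, so nothing below separates the plasmids from the line itself. EIF4E is the cap-binding translation factor, YTHDF1 a reader of methylated mRNA and CD9 a tetraspanin of vesicle membranes. The title of the series names the loading of mRNA into EVs as a way to profile the transcriptome of cells that stay alive.

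snoRNAs guide chemical changes of ribosomal RNA: the C/D class directs ribose methylation, and the H/ACA class directs the change of uridine to pseudouridine. In humans nearly all of them lie in introns and are trimmed out of the spliced intron of a host gene. Many hosts encode ribosomal proteins or translation factors, while most of the hosts described here are annotated as noncoding, and the spliced RNA of such hosts is often short-lived because translating ribosomes expose it to nonsense-mediated decay. Both kinds of host often start with a terminal oligopyrimidine (TOP) run, a C followed by pyrimidines, through which the mTOR pathway and LARP1 control the RNA.

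The first bases of the hosts are shown because such a run has been described for both noncoding and protein-coding hosts. The windows below hold 30 bases before and 40 bases from the start annotated by RefSeq (GRCh38.p14), 5′ to 3′ on the gene's own strand. Capitals mark a C followed by at least 4 pyrimidines that begins within 20 bases of that start. ZFAS1 lies at chr20:49278612-49278681 (plus strand), SNHG5 at chr6:85678694-85678763 (minus), SNHG16 at chr17:76557734-76557803 (plus), SNHG12 at chr1:28581834-28581903 (minus), SNHG29 at chr17:16438957-16439026 (plus) and GAS5 at chr1:173869006-173869075 (minus).
ZFAS1: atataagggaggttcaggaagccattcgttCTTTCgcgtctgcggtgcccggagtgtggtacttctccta
SNHG5: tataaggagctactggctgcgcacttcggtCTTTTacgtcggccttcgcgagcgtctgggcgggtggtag
SNHG16: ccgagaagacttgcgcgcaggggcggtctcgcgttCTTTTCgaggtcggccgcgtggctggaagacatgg
SNHG12: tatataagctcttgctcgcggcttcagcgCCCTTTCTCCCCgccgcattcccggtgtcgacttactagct
SNHG29: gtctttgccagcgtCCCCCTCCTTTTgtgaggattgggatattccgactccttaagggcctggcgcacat
GAS5: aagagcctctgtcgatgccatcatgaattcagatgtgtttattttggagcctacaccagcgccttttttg
In ZFAS1 and SNHG5 the run begins on the annotated start itself, and in SNHG12 it begins 1 base before it. GAS5 has no such run in the part searched, where the annotated RefSeq start lies upstream of the gene as GENCODE 29 draws it. Of the 31 members, 27 matched the RefSeq promoter table. The run was found in 20 of these 27 (74.1%), in 39 of 57 matched protein-coding hosts (68.4%) and in 50.5% of all 35116 promoters. A longer run of at least 8 pyrimidines was found in 18.5% of the members, 42.1% of the protein-coding hosts (24 of 57) and 15.3% of all promoters. The letters CACGTG (the E-box that MYC binds) occurred on either strand in 7.41% of the members' 300-base promoters and 7.26% of all promoters. ACGTG, the core that hypoxia-inducible factors bind and which lies inside CACGTG, occurred in 18.5% and 21.4%. These shares are descriptions of the annotated windows.

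The hosted snoRNAs matter here because some of them are among the most abundant RNAs of these genes. The 3 H/ACA snoRNAs of SNHG12 named below lie under exons of its alternative transcripts in GENCODE 29. No row of the table used here matched their GENCODE 29 gene IDs. The other 3 have a row and are compared with their hosts further on. Sequences are from GENCODE 29 (GRCh38), 5′ to 3′, and capitals mark the ACA that closes an H/ACA snoRNA where it lies within 3 bases of the 3′ end.
SNORA61: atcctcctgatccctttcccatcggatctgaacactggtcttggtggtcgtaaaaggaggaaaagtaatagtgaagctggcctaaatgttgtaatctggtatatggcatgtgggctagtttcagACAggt
SNORA44: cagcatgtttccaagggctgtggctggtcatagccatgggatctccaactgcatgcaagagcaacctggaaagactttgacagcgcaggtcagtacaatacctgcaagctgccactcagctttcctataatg
SNORA16A: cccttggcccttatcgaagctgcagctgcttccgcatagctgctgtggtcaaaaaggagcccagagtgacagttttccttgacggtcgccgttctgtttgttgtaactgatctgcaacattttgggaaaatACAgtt
SNORA71A: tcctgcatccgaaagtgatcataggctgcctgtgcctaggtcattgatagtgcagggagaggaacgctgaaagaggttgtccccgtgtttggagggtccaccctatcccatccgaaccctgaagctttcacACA
SNORA71D: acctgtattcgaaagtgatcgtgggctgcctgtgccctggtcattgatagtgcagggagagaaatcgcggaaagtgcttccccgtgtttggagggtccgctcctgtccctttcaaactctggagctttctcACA
SNORA73B: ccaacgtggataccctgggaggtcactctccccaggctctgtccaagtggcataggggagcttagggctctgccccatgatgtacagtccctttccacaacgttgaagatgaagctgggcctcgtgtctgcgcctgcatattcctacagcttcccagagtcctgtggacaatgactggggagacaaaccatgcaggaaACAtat
SNORA61 (chr1:28579764-28579893), SNORA44 (chr1:28580381-28580512) and SNORA16A (chr1:28580920-28581056) lie under exons of 5, 4 and 4 of the 17 SNHG12 transcripts, which are annotated as retained intron or antisense models. SNORA71A (chr20:38427309-38427442) and SNORA71D (chr20:38433865-38433998) lie in introns of SNHG17 and are 82.8% identical. SNORA73B (chr1:28508559-28508762) lies in an intron of SNHG3. No row of the table used here matched the GENCODE 29 gene ID of its near copy SNORA73A, 93.1% identical. Reads of such near copies may have been split between genes.

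Between 18059381 and 23400813 reads were recovered per cell library, 5266244 to 7001767 per EV library of the normoxia group and 3259453 to 6129782 per EV library of the hypoxia group. The labels do not say whether replicates came from separate cultures. The p-values below therefore reflect the spread of these samples alone, and part of it may be technical. All 9 HEK293 marker genes in the table had a mean of at least 10 in normoxia cells, and 9 of 9 tested hypoxia response genes were higher in hypoxia cells (limma adjusted p under the threshold of 0.05). In EVs 0 of 10 such genes were higher by limma, with 0 at an unadjusted p under 0.05 and 0 by edgeR and DESeq2, while equal totals gave 2 (median 0.57 against 0.00 as deposited) and equal totals without the 10 highest genes 1 (median 0.43). EV libraries also held more signal on genes that cells hardly use. These genes were picked by a low level in the cell libraries, which limits their value in cells and not in EVs. Near-silent protein-coding genes (mean up to 20 in cells) carried 1.44 units per kb in cells after normoxia and 1.81 after hypoxia. In EVs they carried 7.80 ± 3.52 after normoxia and 16.9 ± 0.561 after hypoxia (SD, n = 3). Normoxia EV replicates 1, 2 and 3 stood at 4.79, 6.92 and 11.7, and the hypoxia EV libraries at 16.3 to 17.5. The summed level of 20 blood and immune markers was 130.4 to 138.9, 119.5 to 147.1, 428 to 766 and 1172 to 1185 units in the same groups, and that of 17 liver and plasma protein genes was 92.1 to 111.9, 106 to 154, 219 to 770 and 1137 to 1213. Of the 20 blood and immune markers 4, 3, 14 and 18 had a mean of at least 10 in the same order of groups, and of the 17 liver and plasma genes 3, 5, 12 and 14. HBG1 and APOC3 were at 0 in normoxia cells, and no marker of these lists was at 0 in EVs. Their part in the EV results below was not tested.

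The members together took a small share of all reads, and a smaller one in EVs than in cells. In cells their share was 0.123% ± 0.00356 after normoxia and 0.110% ± 0.00551 after hypoxia. In EVs the share was 0.0588% ± 0.00484 after normoxia and 0.0539% ± 0.00233 after hypoxia (SD, n = 3 each). No EV library (at most 0.0642%) reached the lowest cell library (0.106%). The 10 highest genes took 11.9% of cell reads and 31.0% of EV reads, and outside those genes the members' shares were 0.133% in cells and 0.0821% in EVs (n = 6 each). These are shares of bulk RNA, so fewer cells or vesicles with a transcript and fewer copies in each cannot be told apart.

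Levels differed widely between members. Several of them overlap another gene in GENCODE 29. On the opposite strand SNHG12 overlaps TRNAU1AP, GAS5 overlaps ZBTB37, ZFAS1 overlaps ZNFX1, SNHG29 overlaps LRRC75A and SNHG7 overlaps FAM69B, and on the same strand SNHG3 overlaps RCC1 and SNHG20 overlaps SEC14L1. SNHG14 overlaps SNRPN on the same strand and UBE3A on the opposite strand. SNHG28 overlaps VSIG8 and the protein-coding model also named SNHG28, both on the same strand. The labels used here do not say whether reads were counted by strand, so some reads of these pairs may have been given to the other gene. Values are in deposited units, which are reads divided by a single factor per library, and levels of different genes are compared per kb of exon. SNHG3 was the highest in cells at 729 units per kb, followed by SNHG8 at 339, GAS5 at 288, SNHG29 at 279.7 and SNHG1 at 265. In EVs the order changed: SNHG12 came first at 389.9 units per kb, followed by SNHG25 at 169, SNHG15 at 107, SNHG9 at 101 and SNHG3 at 98.7. SNHG12 had been 17th in cells at 101 units per kb. Per kb, the ranges of SNHG8, GAS5, SNHG29 and SNHG1 over the 6 cell libraries overlapped each other and lay below that of SNHG3. In EVs the ranges of all 5 leading members overlapped that of a neighbour in this order.

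**Figure D1:**
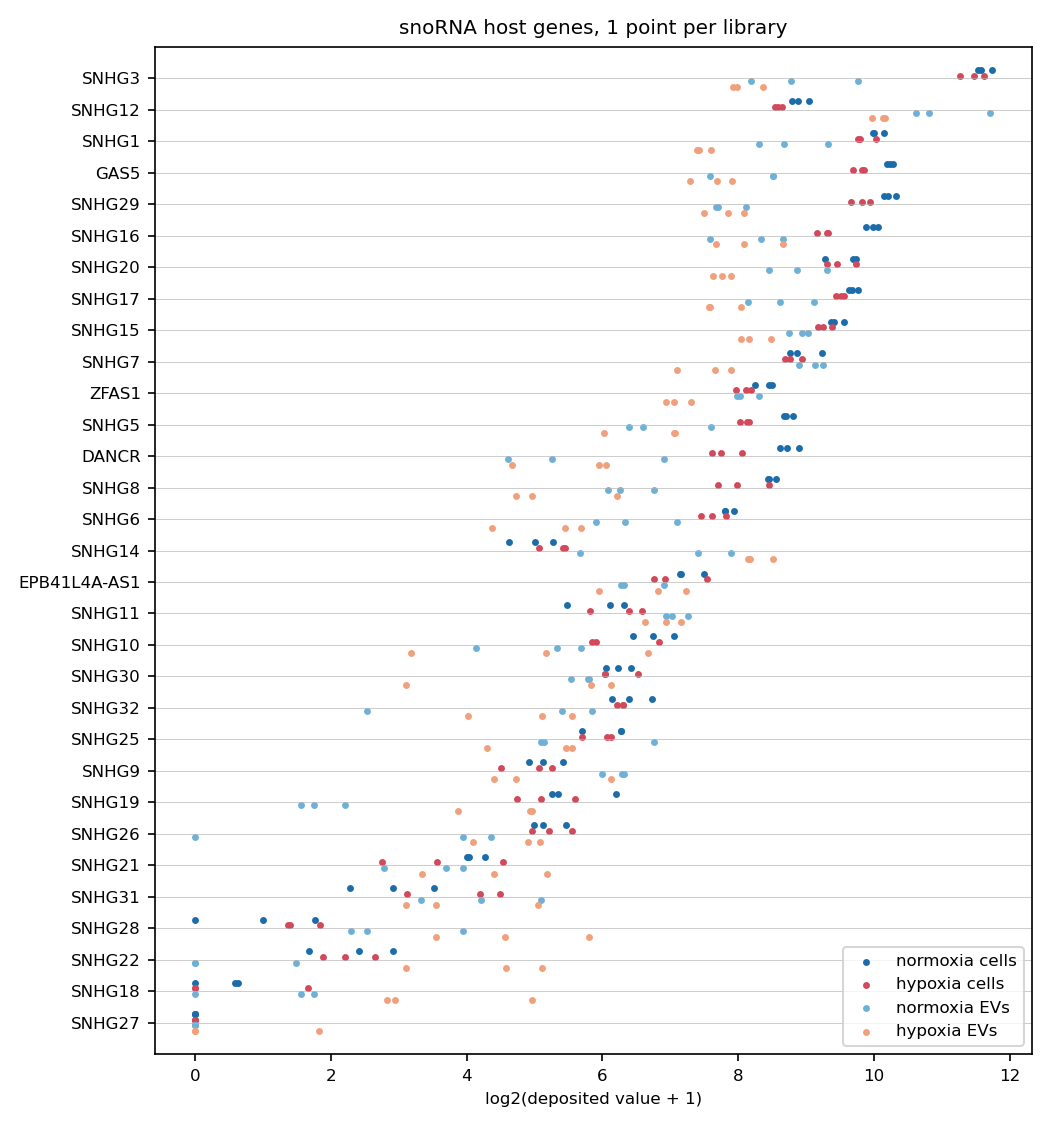
Each point is 1 of the 12 libraries, each row 1 of the 31 members, and the x axis is log2(deposited value + 1), not corrected for length. SNHG12 is the highest member in every EV library, while SNHG3 is the highest in every cell library.

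The lowest members were close to the signal found on near-silent genes. That signal times exon length gives a background equivalent for each gene. Since the near-silent genes were picked by their level in cells, the background equivalent is held down in cells and not in EVs. It was at least as large as the measured value for 4 of 31 members in normoxia cells, 5 in hypoxia cells and 7 in each EV group. In normoxia cells 25 members had a background equivalent under 20% of their value, and in hypoxia EVs 2 did. SNHG14, the long transcript over the imprinted SNURF-SNRPN region that hosts the SNORD115 and SNORD116 clusters, has 43324 bases of annotated exon and stood at 30.8 ± 6.92, 39.0 ± 5.61, 152 ± 94.5 and 312 ± 44.7 units in the 4 groups (SD, n = 3). Its background equivalent was over 200% of its value in all 4. SNHG18 and SNHG27 stayed under a mean of 10 in every comparison and were not tested, and SNHG22 was tested in EVs only. SNHG27 had 1 read in all 12 libraries.

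**Figure D2:**
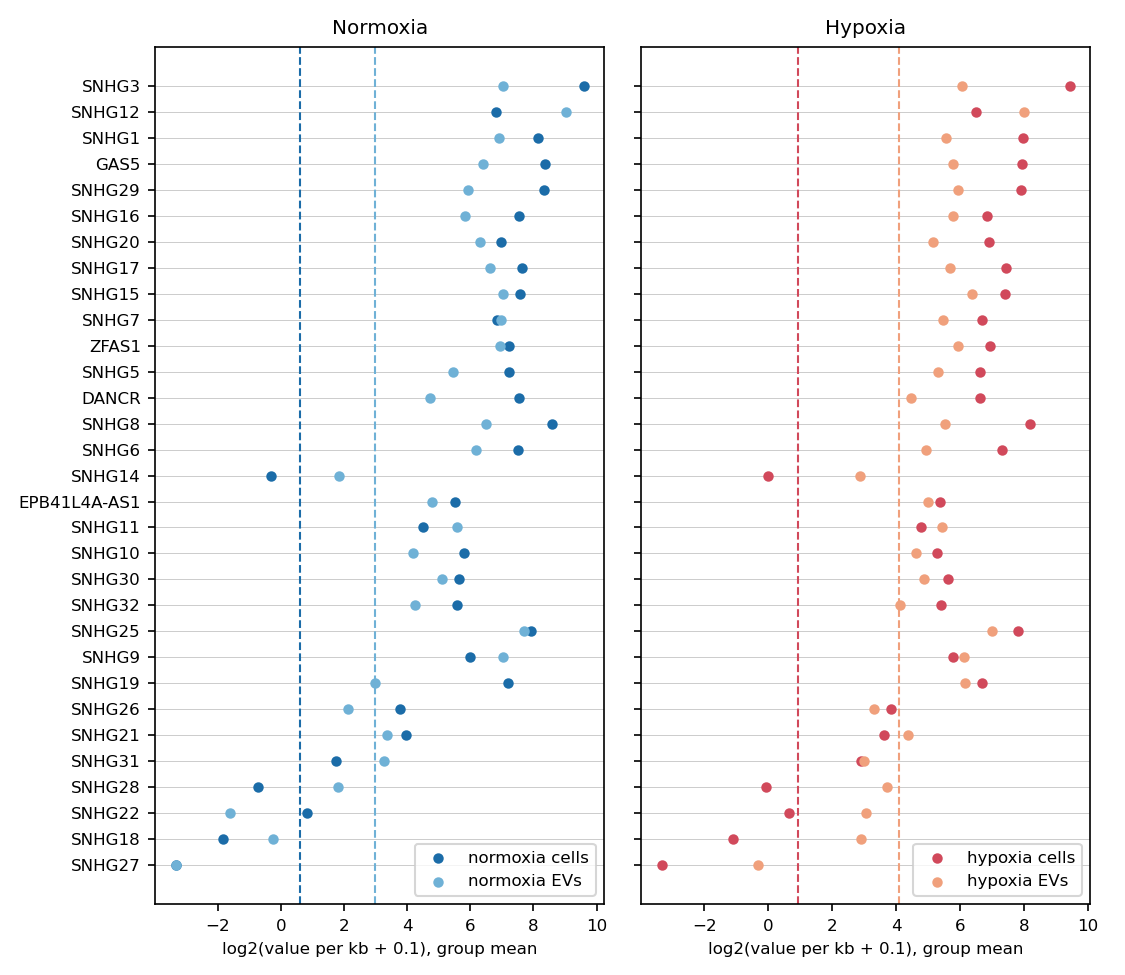
Points are group means of the deposited value per kb of exon, as log2(value per kb + 0.1), for each member in normoxia (left) and hypoxia (right); dashed lines are the mean value per kb of near-silent protein-coding genes in the group of the same colour. The line of the hypoxia EVs (16.9 units per kb) lies much nearer to the members than that of the normoxia cells (1.44 units per kb).

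In cells, hypoxia was followed by lower levels of 11 of the 27 members tested and by higher levels of none. Those 11 were SNHG16, SNHG29, ZFAS1, SNHG12, SNHG5, DANCR, GAS5, SNHG3, SNHG10, SNHG1 and SNHG8, and all but SNHG3 and SNHG1 fell by between 0.31 and 0.94 on the log2 scale. Of all 17260 genes tested, 22.4% were called lower and 8.01% higher (limma on log2(value + 1), adjusted p under 0.05). No member was higher at an unadjusted p under 0.05 either, nor by edgeR or DESeq2 on recovered reads. The median log2 fold change was -0.19 over the members and -0.07 over all genes. In 8 members the 3 hypoxia libraries lay below all 3 normoxia libraries, which held for 27.6% of all genes. SNHG28, SNHG22, SNHG18 and SNHG27 were too low to be tested in cells.

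DANCR, an RNA known for keeping progenitor cells undifferentiated and the host of SNORA26, had the largest log2 change of the 11. It read 392, 421 and 475 units in normoxia cells and 266, 194 and 215 in hypoxia cells. Every hypoxia library was below every normoxia library, and the fit gave a log2 fold change of -0.94 ± 0.11 (SE, limma adjusted p = 3.46e-10), which is 0.522 of the normoxia level. SNHG16, the host of SNORD1A, SNORD1B and SNORD1C, read 943, 1069 and 1012 in normoxia cells and 633, 573 and 639.9 in hypoxia cells. Its groups were also apart, at -0.71 ± 0.08 (limma adjusted p = 1.73e-11).

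SNHG5 hosts SNORD50B and carries a TOP run on its start. It stood at 415, 407 and 446 units in normoxia cells and at 278, 285 and 260.1 in hypoxia cells, a log2 fold change of -0.62 ± 0.10 (limma adjusted p = 1.18e-06). GAS5, named for its rise in growth-arrested cells and known as an RNA that binds the glucocorticoid receptor, read 1170.0, 1199.8 and 1242 in normoxia and 906, 827 and 924 in hypoxia. The change of GAS5 was -0.44 ± 0.07 (limma adjusted p = 7.27e-07). SNHG29, the host of SNORD49A, SNORD49B and SNORD65, went from 1186, 1137 and 1285 to 905, 810.4 and 986, with a log2 fold change of -0.42 ± 0.07 (limma adjusted p = 4.92e-06). In all 3 genes the groups did not overlap. These 3, SNHG16 and DANCR stayed past the threshold without any single library and under each scaling, filter and count test tried. They missed it only in the fit of all 12 libraries (limma adjusted p 0.328 to 0.587), where EV libraries enter the estimate of the spread and 0 members were called.

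The other calls in cells were smaller or rested on fewer libraries. SNHG8, the host of SNORA24, changed by -0.43 ± 0.12 (limma adjusted p = 0.00303), and hypoxia cell replicate 3 (349.8) lay at the normoxia level of 345 to 374. Without hypoxia cell replicate 2 it was at -0.26 and no longer called. ZFAS1, antisense to ZNFX1 and the host of the SNORD12 family, read 304, 350.0 and 361 in normoxia and 276, 248 and 289.5 in hypoxia (-0.32 ± 0.11, limma adjusted p = 0.0195). SNHG12 read 441, 470.1 and 524 in normoxia and 398, 371 and 383 in hypoxia (-0.31 ± 0.09, limma adjusted p = 0.00682). Both genes were apart between the groups. The ZFAS1 call was lost without normoxia cell replicate 2 or 3 or hypoxia cell replicate 2, and the SNHG12 call without normoxia cell replicate 3 (limma adjusted p 0.0762, 0.105, 0.111 and 0.0761). SNHG10, the host of SCARNA13, changed by -0.56 ± 0.21 with groups that overlapped.

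SNHG3 and SNHG1 are the highest and the fifth highest members per kb in cells, and their changes were small. SNHG3 read 2956, 3066 and 3423 units in normoxia cells and 2453, 2840.1 and 3142 in hypoxia cells (-0.17 ± 0.06, limma adjusted p = 0.0368). SNHG1, the host of several C/D snoRNAs such as SNORD25 and SNORD28, read 1014, 1139 and 1025 in normoxia and 885, 866 and 1047 in hypoxia (-0.19 ± 0.07, limma adjusted p = 0.0484). The groups overlapped in both genes. Each call was lost without any of 4 libraries, among them normoxia cell replicates 2 and 3 and hypoxia cell replicates 1 and 2, as was that of SNHG10 without normoxia cell replicate 1 or 2 or hypoxia cell replicate 2 or 3.

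Among the other abundant members no change was called in cells. SNHG20, the host of SCARNA16, read 623, 826 and 854 in normoxia cells and 630.1, 702 and 848 in hypoxia cells. SNHG17, the host of SNORA71A, SNORA71B, SNORA71C and SNORA71D, read 794, 820.0 and 866 and then 749.6, 697 and 729. Its groups were apart but missed the threshold (-0.19 ± 0.08, limma adjusted p = 0.0525). SNHG15 (678, 749.5 and 661, then 608, 667 and 576) and SNHG7 (432, 465 and 603, then 412, 435 and 488) host SNORA9 and the SNORA17 copies. EPB41L4A-AS1, the host of SNORA13, read 141, 179.7 and 140.5, and then 108, 185 and 121. In each of these last 3 genes the groups overlapped.

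The size of the count in cells depended on the scaling. With every library set to the same total, 5 members were lower, those that stayed past the threshold without any single library, and 0 were higher. Over all genes the same setting turned 1383 higher and 3871 lower calls into 2304 and 2043, and moved the median of all genes by 0.12 to 0.06. The members' median was then -0.06, still below that of all genes. edgeR and DESeq2 on recovered reads called 6 and 5 members lower.

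**Figure D3:**
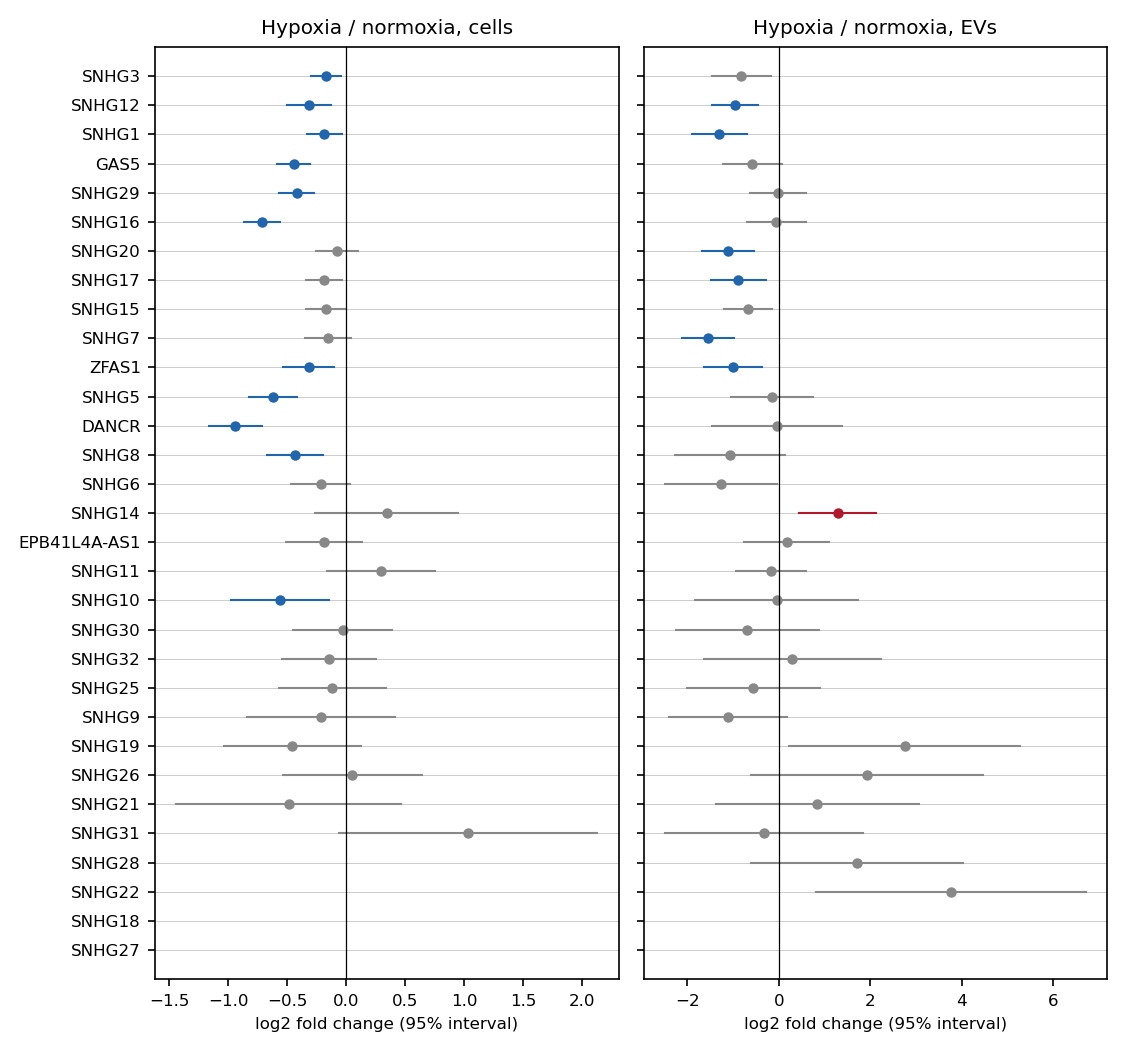
Points are log2 fold changes of hypoxia against normoxia on the log2(value + 1) scale and bars their 95% intervals, in cells (left) and EVs (right); blue marks members called lower and red members called higher (limma adjusted p under 0.05), grey the rest, and members without a point were not tested. In cells 11 members are blue and none red; in EVs 6 are blue and SNHG14 is red, and the intervals are wider.

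The protein-coding hosts, the machinery of snoRNA making and the decay factors were counted beside the members. Of 75 protein-coding snoRNA hosts tested in cells, 61 were lower and 1 higher, with a median of -0.31. The lowest p-values were those of HSPA8, a chaperone (-1.08 ± 0.05), CCT6A, a chaperonin subunit (-0.69 ± 0.06), NPM1, a nucleolar histone chaperone (-0.59 ± 0.05), and VARS1, the valyl-tRNA synthetase (-0.70 ± 0.06). The higher one, named after its value was seen, was NOL3 (1.56 ± 0.20). Of 26 snoRNP proteins and maturation factors 23 were lower and 0 higher (median -0.39), which include the assembly ATPases RUVBL1 (-0.65 ± 0.06) and RUVBL2 (-0.52 ± 0.06), the C/D core protein NOP58 (-0.51 ± 0.06) and the pseudouridine synthase DKC1 (-0.48 ± 0.06). No gene of this list was higher at an unadjusted p under 0.05 or by edgeR or DESeq2.

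Of 24 nonsense-mediated decay factors 11 were lower in hypoxia cells and 0 higher (median -0.11), among them the release factors ETF1 (-0.59 ± 0.06) and GSPT1 (-0.39 ± 0.06). With equal totals 3 of these factors were higher and 8 lower and their median was 0.01. edgeR and DESeq2 each called 1 higher, and limma 0 at an unadjusted p under 0.05. Among 15 genes of TOP control and MYC, 8 were lower and 1 higher. DDIT4, an inhibitor of the mTOR pathway known to rise in hypoxia, was 2.02 ± 0.10 higher, MYC was -1.41 ± 0.08 and LARP1, which binds TOP RNAs, -0.34 ± 0.05. The median of the list was -0.24.

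In EVs hypoxia was followed by lower levels of 6 of the 29 members tested and by a higher level of 1. ZFAS1, SNHG17, SNHG12, SNHG7, SNHG20 and SNHG1 were lower by between 0.89 and 1.54 on the log2 scale, and SNHG14 was higher. Over all 27904 genes tested, 6.62% were lower and 5.68% higher (limma adjusted p under 0.05). The members' median was -0.32, and that of all genes 0.60. The all-gene median covers more low genes here than in cells, where 17260 were tested, and the signal on near-silent genes was higher in hypoxia EVs. With the background equivalent removed the median of all genes was -0.22 and that of the members -1.11. In 8 members all hypoxia EV libraries lay below all normoxia EV libraries, and in 3 above, against 14.5% and 23.4% of all genes.

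SNHG7 had the lowest adjusted p of the members in EVs. It read 609, 559 and 473 units in normoxia EVs and 200.4, 236 and 136 in hypoxia EVs, with a log2 fold change of -1.54 ± 0.28 (limma adjusted p = 0.0084). SNHG1 read 639.9, 409 and 317 and then 171, 193 and 166 (-1.30 ± 0.29, limma adjusted p = 0.0163). SNHG20 read 464, 631 and 349.9 and then 196, 216 and 237 (-1.11 ± 0.28, limma adjusted p = 0.021). The groups of these 3 genes did not overlap.

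SNHG12, the most abundant member in EVs, read 3354, 1569 and 1786 units in normoxia EVs and 999, 1125 and 1145 in hypoxia EVs (-0.96 ± 0.24, limma adjusted p = 0.0228). Normoxia EV replicate 1 was far above the other normoxia EV libraries. ZFAS1 read 259, 315 and 252 and then 132, 157 and 121 (-1.01 ± 0.31, limma adjusted p = 0.0387), and SNHG17 281, 555 and 391 and then 263, 189 and 192 (-0.89 ± 0.29, limma adjusted p = 0.0483). In all 3 genes every hypoxia EV library was below every normoxia EV library, by a narrow gap in SNHG17.

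The remaining abundant members did not pass the threshold in EVs. GAS5 read 364, 366 and 192 and then 155, 206 and 239.6, so its groups overlapped (-0.58 ± 0.31, limma adjusted p = 0.185). SNHG3 read 868, 438 and 291 and then 242, 330.4 and 252. SNHG15 read 523, 492 and 428 and then 357, 286 and 262, which were apart (-0.68 ± 0.25, limma adjusted p = 0.070). DANCR, SNHG16 and SNHG5, which fell most in cells, had groups that overlapped here. DANCR read 119, 23.4 and 37.1 and then 65.5, 24.4 and 60.5, SNHG16 404, 322 and 192 and then 203, 271 and 404, and SNHG5 193, 82.9 and 95.8 and then 132, 63.9 and 134. Their EV log2 fold changes were -0.04 ± 0.69, -0.06 ± 0.31 and -0.14 ± 0.44. SNHG29 (207, 277 and 203, then 180.3, 271 and 229.5) and EPB41L4A-AS1 (78.5, 119 and 76.2, then 112, 149 and 60.5) overlapped between the groups.

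The EV calls rested on few libraries. The count of members lower was 3, 0 and 9 without normoxia EV replicate 1, 2 or 3, and 2, 1 and 0 without hypoxia EV replicate 1, 2 or 3. Without normoxia EV replicate 2, SNHG7, SNHG12 and SNHG1 had the same limma adjusted p of 0.105. Counts over all genes are not given for these fits, so they do not tell whether the members lost calls more than other genes. The single higher call, SNHG14, was lost without any EV library except normoxia EV replicate 3, and was at 0.63 without normoxia EV replicate 1. SNHG7 kept its call without 4 of the 6 libraries and lost it without normoxia EV replicate 2 or hypoxia EV replicate 3 (limma adjusted p 0.105 and 0.0615). ZFAS1 and SNHG12 kept theirs only without normoxia EV replicate 3, SNHG17 and SNHG20 without normoxia EV replicate 1 or 3, and SNHG1 without normoxia EV replicate 3 or hypoxia EV replicate 1. The signal on near-silent genes was lowest in normoxia EV replicate 1 and nearest to the hypoxia EV libraries in replicate 3. Its part in these calls was not tested. With equal totals per library 1 member, SNHG7, was lower and 2 higher, the members' median turned to 0.21 and that of all genes moved by 0.53 to 1.13. All-gene calls went from 1586 higher and 1846 lower to 4201 and 188 in that setting, and to 1160 and 3207 with TMM factors, under which 8 members were lower. With the background equivalent removed no member and no gene was called, so the loss of calls does not single out the members. The falls themselves came out larger there: the members' median was -1.11, SNHG7 was at -2.22 and SNHG1 at -1.82. SNHG14 went to 0.00, which was fixed beforehand because its background equivalent exceeds its value.

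The medians of the other lists in hypoxia EVs also lay below that of all genes. Of 75 protein-coding hosts 42 were lower and 0 higher (median -0.77), with 0 higher also at an unadjusted p under 0.05 and by edgeR and DESeq2. With equal totals 6 were lower and the median was -0.20. Of 26 snoRNP proteins and maturation factors 10 were lower, among them DKC1 (-1.16 ± 0.22) and NOLC1, a chaperone of snoRNPs (-1.03 ± 0.22). Of 24 decay factors 8 were lower, such as UPF3B (-1.12 ± 0.22) and the kinase SMG1 (-1.02 ± 0.22). Of the 15 genes of TOP control and MYC 1 was lower, LARP1 (-0.71 ± 0.23). With equal totals 2 snoRNP factors (median -0.08 against -0.65), 3 decay factors (median -0.09 against -0.65) and 0 genes of TOP control and MYC (median 0.10 against -0.47) were lower. None of these 3 lists had a higher gene by limma at an unadjusted p under 0.05, nor by edgeR or DESeq2.

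Compared with the cells, EV RNA held less of most members and more of a few. Cell RNA was extracted with TRIzol and EV RNA with the exoRNeasy kit, and EV libraries held fewer reads. Effects of extraction and depth cannot be told apart from a difference between cells and EVs. Of 28 members tested over all 12 libraries, 19 were lower in EVs and 4 higher. Over all 24171 genes, 31.8% were lower and 43.1% higher (limma adjusted p under 0.05). The members' median log2 difference was -1.32 and that of all genes 0.32. In 12 members every EV library was below every cell library and in 4 above, against 21.3% and 19.8% of all genes. This comparison uses the libraries of the hypoxia comparisons again.

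SNHG3 showed the largest difference towards cells. Its mean was 2980.0 ± 325 units in the cell libraries against 404 ± 238 in EVs (SD, n = 6 each), or -3.03 ± 0.18 on the log2 scale (SE, limma adjusted p = 2.21e-11). DANCR followed at 327 ± 118 and 55.0 ± 36.0 (-2.70 ± 0.31, limma adjusted p = 2.00e-07), SNHG8 at 313 ± 66.8 and 63.0 ± 30.7 (-2.43 ± 0.23) and SNHG29 at 1052 ± 181 and 228 ± 39.0 (-2.20 ± 0.13). GAS5 stood at 1045 ± 179 in cells and 254 ± 90.4 in EVs (-2.09 ± 0.15), or 0.234 of the cell level. In these 5 genes no EV library reached any cell library. The other 14 lower members ranged from SNHG19 at -2.15, SNHG6, the host of SNORD87, at -1.93, SNHG1 at -1.83, SNHG5 at -1.63 and SNHG32, the host of SNORD48 and SNORD52, at -1.61, through SNHG26 (-1.49), SNHG16 (-1.45), SNHG10 (-1.44), SNHG17 (-1.42) and SNHG20 (-1.22), to SNHG15 (-0.79), ZFAS1 (-0.64), EPB41L4A-AS1 (-0.59) and SNHG7 (-0.56). The SNHG7 difference was 0.14 ± 0.20 in normoxia and -1.25 ± 0.20 in hypoxia, so its EV level lay below that of cells in the hypoxia libraries and not in the normoxia libraries. SNHG19 was at -3.76 ± 0.58 in normoxia, where its EV libraries held very few reads, and at -0.55 ± 0.58 in hypoxia. In the same order SNHG26 was at -2.42 ± 0.82 and -0.55 ± 0.82, ZFAS1 at -0.30 ± 0.19 and -0.99 ± 0.19, and EPB41L4A-AS1 at -0.77 ± 0.32 and -0.41 ± 0.32. The rest of the 14 were at -0.53 or lower in both conditions. EPB41L4A-AS1 and SNHG26 each lost the call without any of 3 single libraries: normoxia cell replicate 2, hypoxia cell replicate 2 or hypoxia EV replicate 3 for the former, and normoxia cell replicate 3, hypoxia cell replicate 2 or hypoxia EV replicate 1 for the latter.

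SNHG12 went the other way. Its mean was 431 ± 59.0 units over the cell libraries and 1663 ± 881 over the EV libraries (SD, n = 6 each), 3.53 times as much on the fitted scale (1.82 ± 0.15, limma adjusted p = 1.25e-09). The lowest EV library (999) was above the highest cell library (524). The difference was 2.14 ± 0.21 in normoxia and 1.50 ± 0.21 in hypoxia, and it held without each library in turn (1.65 to 1.93) and in all 11 other settings (1.43 to 2.22). SNHG12 made up 3.27% to 3.77% of all member reads in cells and 22.7% to 36.9% in EVs. Without it the members took 0.113% of cell reads and 0.0408% of EV reads. Its background equivalent was 1.28% of its value in normoxia cells and 6.61% in hypoxia EVs, so it was far above the signal on near-silent genes.

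The other 3 members higher in EVs were low or near the background. SNHG11 stood at 70.5 ± 18.8 in cells and 127 ± 18.9 in EVs (0.88 ± 0.22, limma adjusted p = 0.00135), SNHG14 at 34.9 ± 7.20 and 232 ± 109.6 (2.50 ± 0.30), and SNHG28 at 1.53 ± 0.947 and 18.5 ± 19.0 (2.55 ± 0.63). With the background equivalent removed SNHG12 alone was called higher, while SNHG11 was at 0.48, SNHG28 at 0.71 and SNHG14 at 0.00. In that setting 18 members were lower.

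**Figure D4:**
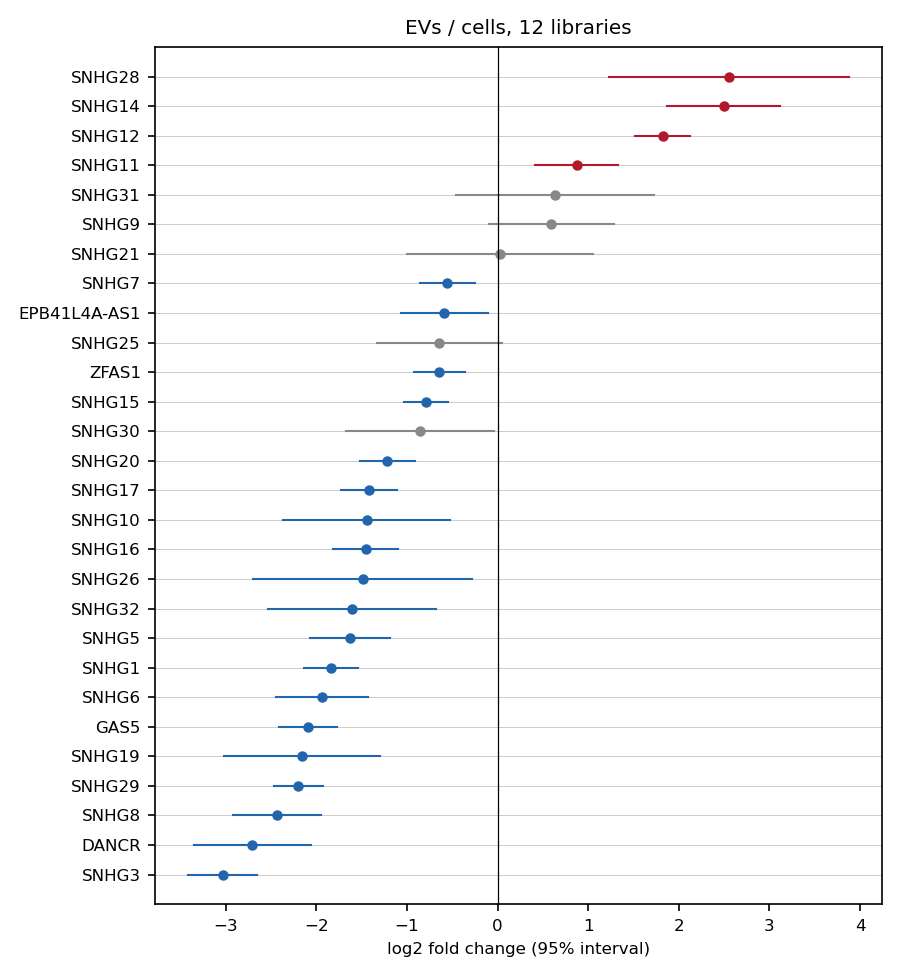
Points are log2 differences between EVs and cells over 12 libraries on the log2(value + 1) scale and bars their 95% intervals for the 28 members tested; blue marks members called lower in EVs, red higher (limma adjusted p under 0.05) and grey neither. SNHG12 (1.82) has a narrow interval, while SNHG28 (2.55), with fewer reads, has a wide one.

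Protein-coding hosts were also lower in EVs, 62 of 75 against 7 higher, with a median of -1.33 that lies beside the members' -1.32. ATP5F1B, a subunit of ATP synthase, was at -2.56 ± 0.10, and RPS3, of the small ribosomal subunit, at -2.41 ± 0.11. Of 26 snoRNP and maturation factors 21 were lower and 2 higher, namely RUVBL2 (0.68 ± 0.11) and NOP56 (0.53 ± 0.11), both named after their values were seen. Of 24 decay factors 16 were lower, such as the exonuclease XRN1 (-2.37 ± 0.11), and 3 higher, namely UPF2 (1.13 ± 0.12), EIF4A3 (0.44 ± 0.12) and SMG8 (0.35 ± 0.11). Of the 15 genes of TOP control and MYC 10 were lower and 1, MYC, higher (0.56 ± 0.12). These genes too were named after their values were seen. With TMM factors 4, 1, 1 and 0 genes of these 4 lists were higher. TMM factors moved the median of all genes by -0.38, and equal totals without the 10 highest genes by 0.40. All-gene calls were 10414 higher and 7680 lower as deposited, 8687 and 9606 with TMM factors, and 12669 and 5908 with equal totals outside the 10 highest genes. In that last setting 5 members were higher and 15 lower, and ZFAS1 (-0.25), EPB41L4A-AS1 (-0.19), SNHG7 (-0.16) and SNHG26 were no longer called.

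The hosted snoRNAs could be followed for part of the members. GENCODE 29 draws 142 snoRNA or scaRNA genes inside the members, of which 98 had a row in the table and 44 were not analysed here as rows of their own. Of those 44, 41 lie under an exon of some host transcript, whereas 9 of the 98 do. Of the 98, 13 were abundant enough for the comparison of EVs with cells, where 4 were higher and 6 lower, against 43.1% and 31.8% of all genes tested. How much of a host's value in EVs comes from reads of snoRNAs that lie under its exons was not tested. No snoRNA of GAS5 was analysed here.

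SNORA71A and SNORA71D were higher in EVs, and their host SNHG17 was lower. In cells SNORA71A read 201, 202 and 237 units after normoxia and 200.1, 318 and 403 after hypoxia. In EVs it read 2155, 1477 and 1413 after normoxia and 550.4, 799 and 648 after hypoxia. No cell library reached an EV library (2.05 ± 0.16, limma adjusted p = 9.13e-10). SNORA71D averaged 69.0 ± 22.0 in cells against 658 ± 386 units in the EVs (SD, n = 6 each; 3.11 ± 0.22), with all 6 EV libraries (302 to 1373) above all 6 cell libraries (46.0 to 97.0). The third copy called higher, SNORA71B, was at 1.00 ± 0.31, which fell to 0.61 with TMM factors and missed the threshold there. The fourth copy, SNORA71C, was not called over both conditions (-0.19 ± 0.21): it stood at 0.92 ± 0.30 in normoxia and at -1.30 ± 0.30 in hypoxia. SNORA60, in an intron of SNHG11, was at 2.14 ± 0.62 with a mean of 4.27 in cells and 23.4 in EVs.

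SNORA73B, whose RNA acts in the processing of ribosomal RNA, was the most abundant hosted snoRNA in the table. In cells it read 3792, 3892 and 4363 units after normoxia and 3350.1, 3906 and 4505 after hypoxia. In EVs the values were 7246, 2982 and 1874 after normoxia and 847, 874 and 549.8 after hypoxia. Normoxia EV replicate 1 is above all cell libraries, and the hypoxia EV libraries are below all others. It was lower in EVs at -1.31 ± 0.22 (limma adjusted p = 2.23e-05), with -0.22 ± 0.31 in normoxia and -2.39 ± 0.31 in hypoxia, while its host SNHG3 was at -3.03. SCARNA13 (-2.66 ± 0.32), SNORD12B (-3.21 ± 0.62), SCARNA17 (-3.31 ± 0.78), SNORA26 (-2.02 ± 0.51) and SNORA13 (-1.86 ± 0.56) were lower in EVs, as were their tested hosts SNHG10, ZFAS1, DANCR and EPB41L4A-AS1. SCARNA17 lies in SNHG22, which was not tested there.

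**Figure D5:**
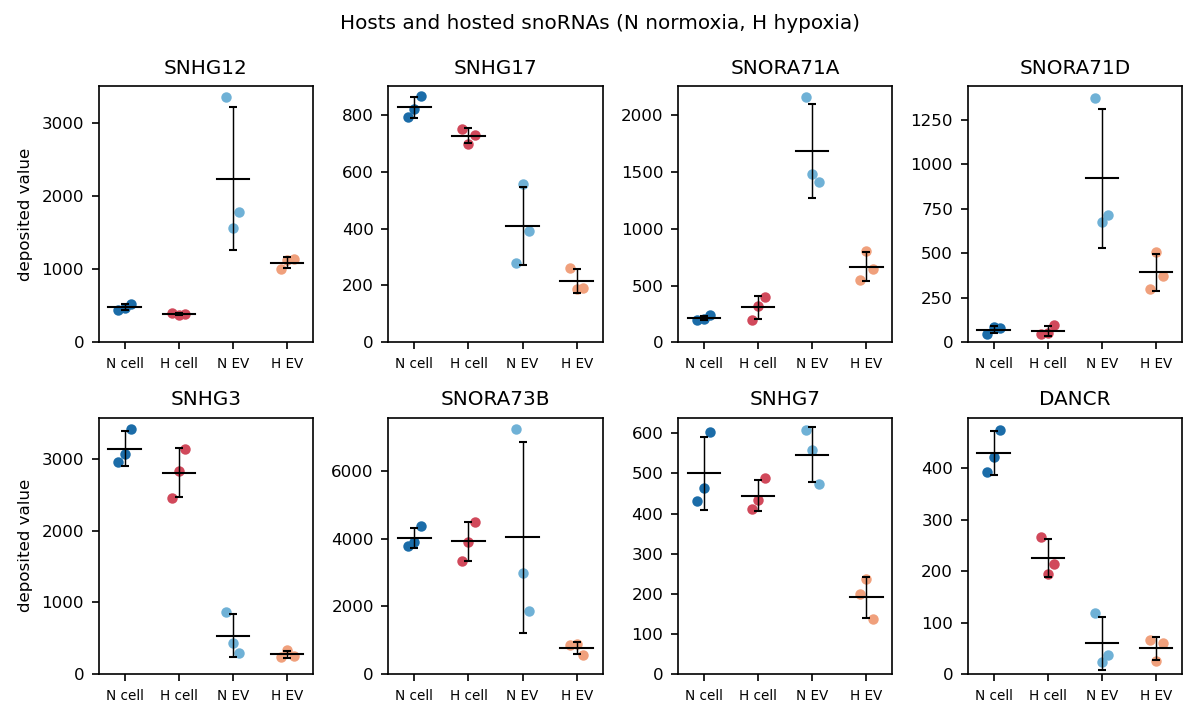
Deposited values of 5 hosts and 3 hosted snoRNAs; points are libraries, horizontal lines means and error bars 1 SD (n = 3), and each panel has its own linear axis from 0. SNORA71A and SNORA71D are high in EVs where SNHG17 is low, the normoxia EV libraries of SNORA73B (1874 to 7246) lie around its cell libraries where SNHG3 is low, and SNHG12 is high in EVs.

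Of 11 hosted snoRNAs tested in EVs 4 were lower after hypoxia and 0 higher, against 6.62% and 5.68% of all genes tested. The median of the 11 was -1.55, and limma gave 0 higher at an unadjusted p under 0.05, as did edgeR and DESeq2 at their adjusted threshold. SNORA73B fell by 2.21 ± 0.32 (limma adjusted p = 7.88e-04), SNORA71C by 1.95 ± 0.41, SNORA71A by 1.33 ± 0.23 and SNORA71D by 1.18 ± 0.27. All 4 calls were lost without normoxia EV replicate 2, that of SNORA71C also without hypoxia EV replicate 3, and that of SNORA71D also without normoxia EV replicate 1 or hypoxia EV replicate 1 or 3. Without normoxia EV replicate 2, SNORA71A, SNORA71C and SNORA71D had the same limma adjusted p of 0.105 as SNHG7. Whether other genes lost calls as often in that fit is not given here. With the background equivalent removed none of the 4 was called, nor was any other gene. In cells SNORA71A was 0.47 ± 0.14 higher (limma adjusted p = 0.00554), which rested on hypoxia cell replicate 3 and was at 0.24 without it. SNORD12C was -0.97 ± 0.35, a call that was lost without any single cell library other than hypoxia cell replicate 3 (limma adjusted p up to 0.0924). As a share of all reads the hosted rows took 0.0448% and 0.0484% in normoxia and hypoxia cells and 0.0566% and 0.0251% in normoxia and hypoxia EVs, with normoxia EV replicate 1 at 0.0820%.

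The difference between the hypoxia responses of EVs and cells was tested directly in the 12-library fit. Of 28 members 2 had a lower response in EVs and 1 a higher one, against 1.87% and 0.443% of 24171 genes. SNHG7 differed by -1.38 ± 0.29 (limma adjusted p = 0.0219) and SNHG1 by -1.11 ± 0.29 (limma adjusted p = 0.045). SNHG19, the host of SNORD60, differed by 3.21 ± 0.83 (limma adjusted p = 0.0457), with 2.38, 3.60 and 1.95 units in normoxia EVs, which is 1 or 2 reads a library, and 29.4, 13.7 and 30.3 in hypoxia EVs. Its cell libraries read 39.8, 72.2 and 37.0 and then 33.0, 47.4 and 25.7. For GAS5 the difference was -0.13 ± 0.31, for SNHG16 0.66 ± 0.34, for DANCR 0.90 ± 0.62 and for SNHG12 -0.64 ± 0.29, none of which passed the threshold. The SNHG7 difference held without 7 of the 12 libraries (-1.56 to -1.16 over all 12) and was lost without normoxia cell replicate 1 or 2 or any hypoxia cell library. That of SNHG1 held only without normoxia EV replicate 3 (-1.34 to -0.84), and that of SNHG19 only without normoxia EV replicate 1, 2 or 3 or hypoxia EV replicate 2 (2.91 to 3.56). The members' median was -0.45 and that of all genes 0.23. With equal totals 0 members had a lower response and 2 a higher one, and all-gene calls went from 107 higher and 452 lower to 475 and 151.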

How the data were processed

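RNA from HEK293 cells (TRIzol) and from their EVs (exoRNeasy midi kit) was turned into libraries with a stranded total RNA kit, per the labels' protocols. The deposited values are a signal: the authors divided the read count of each gene by a single factor per library, as read from the values, of which 100% were whole reads within 0.01. Bowtie 0.12.2, DESeq2 1.30.1 and hg38 are named in the submitters' processing notes. The counting tool, its annotation and its strand setting were not given in the sources used here. Of 57773 gene IDs, 52338 matched GENCODE 29 (GRCh38), which gave names, positions and exon lengths, and 5435 did not. SNHG4 and snoRNAs without a matched row were not analysed here.

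Depth was 18059381 to 23400813 reads in cell libraries and 3259453 to 7001767 in EV libraries. The 12 pairs of replicates within groups differed beyond counting noise (chi-square over its degrees of freedom 5.05 to 13.4). Groups follow the labels. Each comparison was fitted with limma 3.58.1 (trend) in R 4.3.3 on log2(value + 1) over all genes with a mean of at least 10, with Benjamini-Hochberg adjustment over all of them and a threshold of 0.05, from the 6 libraries of a hypoxia comparison or all 12. Fold changes refer to log2(value + 1), on which changes of low genes come out too small.

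Alternatives were pseudocounts of 0.5 and 5, TMM factors, a minimum mean of 50, no minimum, equal totals with and without the 10 highest genes, edgeR 4.0.16 and DESeq2 1.42.0 on the recovered reads, a replicate block, removal of the background equivalent, a fit of all 12 libraries and leaving out each library. The fit was also run on simulated counts with set spreads. These lacked the higher signal on near-silent genes in EV libraries, so that run does not vouch for the EV calls. The members and lists were chosen with earlier results of these data known. Values in every library were given for the 12 members with the highest mean and the 4 without an SNHG name, and other members past the threshold were named with their log2 values.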

Additional observations from a re-analysis of the deposited data

Results flagged for a closer look

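The following results were picked out because the response to hypoxia differed between EVs and cells in a direct test of the difference (limma, 12 libraries, adjusted p under 0.05). The difference, EVs minus cells on the log2 scale, was -1.38 ± 0.29 for SNHG7 (adjusted p = 0.0219), -1.11 ± 0.29 for SNHG1 (adjusted p = 0.045) and 3.21 ± 0.83 for SNHG19 (adjusted p = 0.0457). Among the hosted snoRNAs it was -2.17 ± 0.43 for SNORA73B (adjusted p = 0.0192), -2.22 ± 0.43 for SNORA71C (adjusted p = 0.0152) and -1.80 ± 0.32 for SNORA71A (adjusted p = 0.0108). Leaving out each of the 12 libraries in turn kept the call 7 times for SNHG7, 1 time for SNHG1, 4 times for SNHG19, 7 times for SNORA73B, 8 times for SNORA71C and 9 times for SNORA71A, and the values ranged from -2.60 to -1.63 for SNORA73B, -2.38 to -1.96 for SNORA71C and -2.07 to -1.57 for SNORA71A. SNORA71C read 91.6, 116 and 145 units in normoxia cells, 128, 118 and 183 in hypoxia cells, 297, 178 and 201 in normoxia EVs and 38.7, 65.5 and 70.6 in hypoxia EVs.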

How the results depend on the processing

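Members and hosted snoRNAs called in a main fit gave 1314 values under other settings. Of these, 1115 kept their direction and side of the threshold, 199 no longer passed it and 0 reversed. Genes not called in the main fit were not followed, so new calls are not in these counts. These counts pool the 4 comparisons. Calls of EVs against cells were mostly kept, while those of the hypoxia comparisons and of the difference of responses were lost far more often. Genes that a setting left untested were not counted as lost. For members lower in hypoxia cells (11), equal totals gave 5, equal totals without the 10 highest genes 5, edgeR 6, DESeq2 5, removal of the background equivalent 7 and the fit of all 12 libraries 0. For members higher in hypoxia EVs (1), a pseudocount of 0.5 gave 0, TMM factors 0, equal totals 2, edgeR 0, background removal 0 and the 12-library fit 2. For members lower in hypoxia EVs (6), equal totals gave 1, equal totals without the 10 highest genes 2, background removal 0 and the 12-library fit 11, and the members' median log2 fold change turned from -0.32 to 0.21 with equal totals and to 0.084 without the 10 highest genes. For members higher in EVs than in cells (4), background removal gave 1. For the difference of responses, the higher count (1) was 0 with a pseudocount of 5, a minimum mean of 50, no minimum or the replicate block and 2 with equal totals, and the lower count (2) was 0 without a minimum, 0 with equal totals, 1 without the 10 highest genes, 1 with the replicate block and 4 with background removal. Outside the 10 highest genes the members' share was 0.133% in cells and 0.0821% in EVs. The cause was not tested.

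Leaving out each library gave 0 to 0 members higher and 6 to 10 lower in hypoxia cells, 0 to 2 and 0 to 9 in hypoxia EVs, 3 to 4 and 17 to 20 in EVs against cells, and 0 to 1 and 0 to 5 for the difference of responses. Counts over all genes are not given for these fits. Deviations of same-numbered libraries correlated at -0.161 to 0.045, and those of libraries with unlike numbers at -0.093 to 0.145. No pairing showed, but deviations from a mean of 3 libraries cannot tell whether same-numbered libraries shared a culture. With the replicate block 11 members were lower in hypoxia cells, 1 was higher and 7 lower in hypoxia EVs, and 4 were higher and 19 lower in EVs against cells. With 3259453 to 7001767 reads in an EV library, members of a few reads, such as SNHG19 and SNHG28, have wide intervals.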
